A study of Mus musculus with 14 samples.

Results

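The MT and ORR1 elements are the rodent members of the ERVL-MaLR family of LTR retrotransposons, and their expression was followed in male germ cells with and without the DNA methyltransferase DNMT3C. Every annotated copy of the ERVL-MaLR family whose subfamily name begins with MT or ORR1 was taken, which gave 370354 of the 3725827 transposable element (TE) copies and 49 of the 1095 (spermatogonia) or 1098 (spermatocytes) TE subfamilies in the tables. They were divided by name into MTA (18650 copies, 2 subfamilies), MTB (12353, 4), MTC (31009, 2), MTD (54065, 2), MTE (68872, 9) and ORR1 (184967, 29), with MT-int (438 copies) left over. A name ending in -int stands for the internal part of the element, and the other names stand for the LTR. Polyadenylated RNA had been sequenced from sorted germ cells of Dnmt3CKO/KO (KO) and wild-type (WT) littermates on the C57Bl6/J background. Spermatogonia were sorted from testes of mice 14 days old as Ep-CAM-positive and ß2M-negative cells (3 KO and 3 WT libraries), and spermatocytes from mice older than 20 days by Hoechst and propidium iodide staining (4 KO and 4 WT libraries). The sources do not say how many animals each library holds, so the p-values measure the spread between these libraries.

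MaLR elements are non-autonomous: their internal part encodes no proteins, and they are thought to have been mobilised by the proteins of related ERVL elements. In the mouse they form a series from the old, widely spread MTE, MTD and ORR1E to ORR1G types to the young MTA and ORR1A types. They are best known from the oocyte and the early embryo, where MT LTRs serve as promoters of many transcripts, among them the oocyte form of Dicer1, driven by an MTC LTR. DNMT3C is a rodent-specific duplicate of DNMT3B that methylates promoters of young retrotransposons, chiefly L1 and ERVK types, in fetal male germ cells.

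The sequences that bear on the results are those of MT and ORR1 LTRs at which an annotated gene starts, which tie a member to a named gene. They were chosen after their values were seen, as the genes of highest level among those called changed whose RefSeq promoter window lies in a member LTR. Windows run from 250 bases before to 50 bases after the start (RefSeq, build GRCm38.p6), written along the gene's strand with the bases of the LTR in capitals. The first 3 belong to transcripts that fell in KO spermatocytes, all without a known protein: 4932702P03Rik at chr13:24905350-24905649 (+), with 191 of 300 bases in an ORR1F LTR, 4930478P22Rik at chr5:35361303-35361602 (+), with 106 bases in an MTE2b LTR, and 1700019C18Rik at chr13:35211999-35212298 (−), wholly in another MTE2b LTR.
4932702P03Rik: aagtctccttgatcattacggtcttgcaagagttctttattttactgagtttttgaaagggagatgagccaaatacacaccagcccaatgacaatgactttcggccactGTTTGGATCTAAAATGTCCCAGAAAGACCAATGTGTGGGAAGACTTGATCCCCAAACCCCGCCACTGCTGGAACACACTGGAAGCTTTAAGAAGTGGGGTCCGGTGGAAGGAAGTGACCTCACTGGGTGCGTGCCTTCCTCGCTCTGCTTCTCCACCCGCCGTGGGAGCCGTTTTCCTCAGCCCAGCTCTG
4930478P22Rik: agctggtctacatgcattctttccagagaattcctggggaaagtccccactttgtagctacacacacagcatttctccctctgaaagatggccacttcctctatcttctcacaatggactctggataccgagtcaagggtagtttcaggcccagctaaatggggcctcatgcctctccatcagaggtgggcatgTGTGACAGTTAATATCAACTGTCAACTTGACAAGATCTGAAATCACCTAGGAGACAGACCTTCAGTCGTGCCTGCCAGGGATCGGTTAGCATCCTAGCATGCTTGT
1700019C18Rik: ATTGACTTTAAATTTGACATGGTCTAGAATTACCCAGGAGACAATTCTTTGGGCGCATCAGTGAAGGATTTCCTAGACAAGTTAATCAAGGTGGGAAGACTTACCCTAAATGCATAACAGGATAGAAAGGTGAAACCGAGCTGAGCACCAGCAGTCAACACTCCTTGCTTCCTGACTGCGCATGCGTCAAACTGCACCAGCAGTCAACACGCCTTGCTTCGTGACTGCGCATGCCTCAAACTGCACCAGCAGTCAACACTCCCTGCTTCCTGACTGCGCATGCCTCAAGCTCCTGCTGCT
For the 2 genes that rose, only the 250 bases before the start are shown: Iffo2 (an intermediate filament family gene) at chr4:139530298-139530547 (+), with 211 bases in an MTA_Mm LTR, and Hdac9 (a histone deacetylase) at chr12:34917096-34917345 (−), wholly in an MTEa LTR.
Iffo2: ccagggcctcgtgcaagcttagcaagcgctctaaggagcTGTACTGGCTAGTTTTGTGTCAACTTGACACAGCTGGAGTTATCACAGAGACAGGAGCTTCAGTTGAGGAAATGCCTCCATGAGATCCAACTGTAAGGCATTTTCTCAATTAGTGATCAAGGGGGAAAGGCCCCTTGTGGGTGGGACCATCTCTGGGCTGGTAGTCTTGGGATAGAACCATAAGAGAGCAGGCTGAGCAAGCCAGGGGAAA
Hdac9: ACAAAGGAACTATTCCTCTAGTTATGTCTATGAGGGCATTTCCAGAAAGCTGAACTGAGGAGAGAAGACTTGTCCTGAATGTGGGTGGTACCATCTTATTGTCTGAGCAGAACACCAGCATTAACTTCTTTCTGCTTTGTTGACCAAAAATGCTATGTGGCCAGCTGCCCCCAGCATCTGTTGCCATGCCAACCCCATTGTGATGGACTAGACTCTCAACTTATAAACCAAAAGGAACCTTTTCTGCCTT
The last sequence is the first 200 bases of the exon of the lincRNA A430046D13Rik that the copy MTC-int_dup2183 covers, at chr10:128502409-128502608 (+). Here each CG, the dinucleotide that DNA methylation targets, is in capitals. This copy carried much of the MTC-int signal described further on.
MTC-int_dup2183: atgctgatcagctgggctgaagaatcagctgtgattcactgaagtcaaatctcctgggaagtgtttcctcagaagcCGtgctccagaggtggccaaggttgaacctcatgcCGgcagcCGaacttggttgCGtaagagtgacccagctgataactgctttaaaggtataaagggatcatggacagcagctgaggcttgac
Over the full 300-base windows, the 11 genes of this kind called lower held 1 to 10 CG (median 4) and the 5 called higher held 0 to 4 (median 3), so that the ranges overlapped. Of 32851 RefSeq promoter windows, 375 had their start in a member LTR on the same strand, with a median of 2 CG against 7 over all windows. The motif TATAAA, searched on both strands, was in 18.7% of the 375 and in 13.6% of all. The motif GCGCATGC, the core to which NRF1 binds, was found on either strand in 3 of the 375 (0.8%), against 2.71% of all windows. By group it was in 2 of the 42 windows at MTE LTRs (4.76%), that of 1700019C18Rik among them, in 1 of the 228 at ORR1 LTRs and in 0 at the others.

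The libraries held 40.6 to 53.3 counts over genes and TE subfamilies in units of 1000000, of which TE made up 3.6 to 5.44% in KO spermatogonia, 2.28 to 3.52% in WT spermatogonia, 5.74 to 8.67% in KO spermatocytes and 1.77 to 2.93% in WT spermatocytes. Counts of Dnmt3c were not lower in KO and so did not check the genotype. The gene stood at 2.32, 1.22 and 1.42 CPM (TMM-scaled counts per 1000000 counts) in KO and 1.87, 1.59 and 1.15 CPM in WT spermatogonia, and at 0.873 to 1.03 CPM in KO and 0.276 to 0.778 CPM in WT spermatocytes. It was not called in either stage (edgeR adjusted p = 0.124 in spermatocytes). How the counted reads lie to the deleted part, and whether reads were divided between it and its paralog Dnmt3b, was not tested. Spermatocytes of the 2 genotypes differed in their cell type markers. Of 10 pachytene markers 9 were lower in KO, with a summed level of 145 to 309 CPM against 6915 to 13848 CPM in WT, and all 10 spermatid markers were lower (3.19 to 12.1 against 93.2 to 1626 CPM). Of 10 spermatogonial markers 7 were higher and 1 lower (400.5 to 1008 against 151 to 371 CPM). Markers of somatic cells were higher as well, with 1 of 7 for Sertoli cells (94.1 to 351 against 41.2 to 129 CPM), 5 of 5 for Leydig cells (46.5 to 276 against 12.4 to 24.6 CPM), 3 of 4 for peritubular cells (13.5 to 128 against 2.52 to 7.58 CPM) and 5 of 5 for macrophages (19.5 to 108 against 2.52 to 5.01 CPM). Of 10 early meiotic markers 4 were higher and 1 lower, and of the erythroid markers 0 were called. None of these lists had a call in spermatogonia, whose libraries held the spermatogonial markers at a summed level of 1697 to 2234 CPM in KO and 1483 to 2038 CPM in WT, beside Sertoli cell markers at 208 to 594 CPM and 142 to 506 CPM. Pachytene markers there were at 155 to 183 CPM in KO and 280 to 1671 CPM in WT, without overlap. Of these 10, 5 had an unadjusted p under 0.05 in edgeR, with a median log2 fold change of −1.84 over the list. The part of cell make-up in the results below was not tested. In bulk samples of this kind, fewer cells of a type and less RNA per cell cannot be told apart. Replicates 1 and 4 of each spermatocyte genotype were far more alike than other pairs and may come from the same cells, which the labels do not say. They were counted as 2 libraries in n = 4, so p-values in spermatocytes may be too small, and calls with both summed to 1 library are given below. Replicate 3 of the WT spermatocytes stood apart from the other WT libraries in many values, and these are given with and without it where it matters.

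MT and ORR1 elements took up overlapping shares of the counts in KO and WT spermatogonia and a larger share in KO spermatocytes for MTA and MTB. In spermatogonia their summed share was 0.190% ± 0.0561 for KO and 0.189% ± 0.0461 for WT (SD, n = 3), and the groups of libraries overlapped for each of MTA to MTE and ORR1. In spermatocytes it was 0.248% ± 0.0272 for KO (0.226 to 0.287%) and 0.168% ± 0.0399 for WT (0.142 to 0.227%), which is 1.47-fold more (n = 4). The highest WT value, that of replicate 3, lay just above the lowest KO value, and the log2 ratio of 0.56 became 0.74 without this library.

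MTA, the youngest MT type, had a share of 0.0357% ± 0.00192 in KO and 0.0131% ± 0.00479 in WT spermatocytes, a 2.72-fold difference, and MTB held 0.0109% ± 0.001 and 0.00477% ± 0.00157, 2.29-fold. Neither group overlapped between genotypes. The other groups differed less and overlapped, with 1.32-fold for MTC, 1.27-fold for MTD, 1.19-fold for MTE and 1.41-fold for ORR1. Within ORR1, ORR1C (2.01-fold) and ORR1D (1.76-fold) did not overlap, whereas ORR1E stood at 0.00834% in KO and 0.0105% in WT, and ORR1F at 0.00784% and 0.00794%. On this scale of library totals the median gene was higher in KO by 0.79 (log2), above the 0.56 of all members and the log2 ratios of 0.25 to 0.50 of MTC, MTD, MTE and ORR1. Internal parts were 1.73-fold higher in KO (0.0672% ± 0.00457 against 0.0388% ± 0.0119, without overlap) and LTRs 1.4-fold (with overlap). As a share of TE counts the members were lower in KO, at 4.39% ± 0.357 against 6.22% ± 0.199 in spermatogonia and at 3.29% ± 0.466 against 7.80% ± 0.253 in spermatocytes (for MTA 0.480% against 0.596%, and for MTB 0.146% against 0.219%), where all TE together came to 7.64% (KO) and 2.16% (WT) of all counts. For comparison, the rest of ERVL-MaLR (the MLT and MST types) had a share of 0.0355% in KO and 0.0381% in WT spermatocytes, and the ERVL family 0.078% and 0.0768%. TE other than L1, ERVK and the members were 1.81-fold higher in KO spermatocytes.

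**Figure D1:**
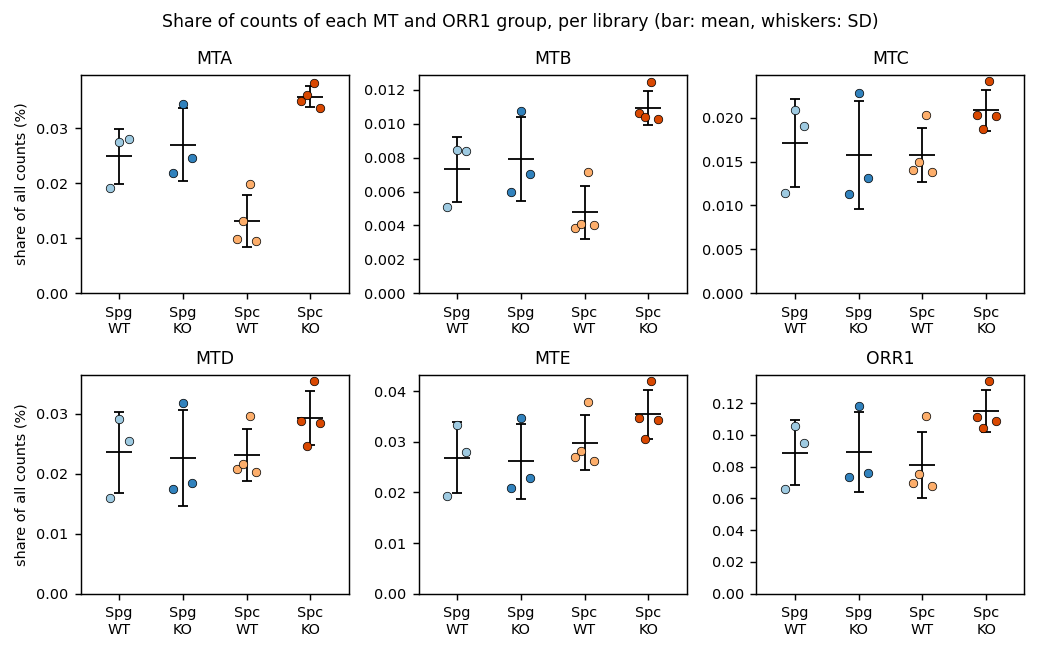
Share of all counts (%) held by each of the 6 groups, with 1 point for each library, the mean as a bar and the SD as whiskers. The spermatocyte KO points lie above all WT points in the MTA panel (0.0337 to 0.0383% against 0.00953 to 0.0199%) and in the MTB panel, while the spermatogonia overlap in every panel.

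In spermatogonia no member subfamily passed the test. Of the 48 that passed the filter on low counts 0 were called by edgeR's quasi-likelihood test (adjusted p under 0.01), against 0.107% of all genes and TE subfamilies tested and 1.09% of TE subfamilies. None had an unadjusted p under 0.05 in edgeR or in DESeq2, and DESeq2 also called 0. The log2 fold changes ran from −0.49 to 0.56. MTA_Mm, the MTA LTR, stood at 104, 187 and 128 CPM in KO and 91.1, 147 and 153 CPM in WT. MTD stood at 156, 291 and 167 CPM in KO and 146, 264 and 240 CPM in WT, and MTC at 86.0, 178 and 100 against 88.3, 156 and 151 CPM. In each of them replicate 2 of KO was the highest library and the groups overlapped. MTB_Mm-int was the 1 member without overlap, at 3.71, 4.90 and 3.33 CPM in KO and 2.44, 2.76 and 2.93 CPM in WT (log2 fold change 0.56, SE 0.29, edgeR adjusted p = 0.843), where 12.1% of all features had groups without overlap.

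In spermatocytes 12 of the 49 member subfamilies were called, with 5 higher and 7 lower in KO. Of all features 57.4% were called and of TE subfamilies 25.7% (11.7% higher and 14% lower), so that the members' 24.5% was near that of TE in general. Those that rose were the MTA_Mm LTR and 4 internal parts, and those that fell were the ORR1A4, ORR1E and ORR1F LTRs and 4 internal parts. The median log2 fold change was 0.09 over the members and 0.11 over all genes, with −0.06 for the 23 LTR subfamilies and 0.53 for the 26 internal ones. The split depended on the scaling. With library totals in place of TMM, 18 were higher and 2 lower, that is 90% of calls higher in place of 41.7%, with a median of 0.76 over the members and 0.79 over all genes. All directions below are relative to that general shift. Under library totals the 5 rises kept their calls, but 5 of the 7 falls lost theirs, with log2 fold changes of −0.05 for ORR1F, −0.11 for ORR1A4, −0.14 for ORR1A4-int, −0.18 for MTC-int and −0.35 for ORR1E. Only MTEa-int and ORR1G-int were called lower on both scales.

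Both MTA subfamilies rose. MTA_Mm was at 155, 131, 162 and 156 CPM in KO and at 89.5, 84.7, 109 and 84.3 CPM in WT (log2 fold change 0.72, SE 0.17, adjusted p = 0.0038). MTA_Mm-int was at 134, 124, 127 and 129 CPM in KO and at 56.2, 77.2, 89.6 and 57.0 CPM in WT (0.88, SE 0.20, adjusted p = 0.00293). In both the lowest KO library was above the highest WT library. Among MTB, the internal parts rose. MTB-int was at 16.2, 17.8, 17.3 and 16 CPM in KO and 7.58, 6.43, 10.9 and 7.47 CPM in WT (1.06, SE 0.27, adjusted p = 0.006). MTB_Mm-int was at 8.85, 4.28, 7.46 and 9.13 CPM against 2.17, 1.18, 2.81 and 2.80 CPM (1.73, SE 0.41, adjusted p = 0.00365), the largest rise among the members called. The MTB LTR was not called, at 32.6 to 41.8 CPM in KO and 24.1 to 35.1 CPM in WT (0.35, SE 0.21). ORR1A0-int, from the youngest ORR1 type, was at 38, 37.4, 31.3 and 35.8 CPM in KO and at 10.2, 11, 26.0 and 9.37 CPM in WT (1.33, SE 0.35, adjusted p = 0.00662). Its WT replicate 3 stood far above the other 3, and without that library the log2 fold change was 1.82.

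Among the members that fell under TMM scaling, ORR1E had the largest fall of an LTR. It was at 63.9, 40.2, 70.1 and 63.1 CPM in KO and at 134, 117, 109 and 133 CPM in WT (log2 fold change −1.05, SE 0.21, adjusted p = 0.00143). ORR1F was at 43.8 to 69.2 CPM in KO and 92.7 to 110 CPM in WT (−0.74, SE 0.19, adjusted p = 0.00613). ORR1A4 was at 34.8 to 45.6 CPM and 63.1 to 74.2 CPM (−0.80, SE 0.18, adjusted p = 0.00281), and ORR1A4-int at 34.4 to 38.7 CPM and 54.1 to 75.0 CPM (−0.81, SE 0.19, adjusted p = 0.00297). None of these 4 had overlapping groups, which was so for 25 of the 49 members and for 67.5% of all features. MTC-int was at 35.9, 33.3, 35.6 and 34.5 CPM in KO and at 74.0, 56.0, 57.3 and 72.4 CPM in WT (−0.90, SE 0.19, adjusted p = 0.0018), while its LTR, MTC, was at 99.4 to 147 CPM in KO and 128 to 145 CPM in WT (−0.06, SE 0.18). MTEa-int was at 19.6, 10.0, 14.9 and 17.2 CPM in KO and at 70.8, 65.5, 52.9 and 70.9 CPM in WT (−2.07, SE 0.25, adjusted p = 8.65e-05). The rare ORR1G-int was at 0.0937 to 0.308 CPM in KO and 1.33 to 3.52 CPM in WT (−3.50, SE 0.52, adjusted p = 0.000271). The most counted LTRs of the remaining groups were not called: MTD at 155 to 232 CPM in KO and 246 to 286 CPM in WT (−0.44, SE 0.18, adjusted p = 0.0471, without overlap), MTEa at 63.2 to 90.5 and 96.0 to 109 CPM (−0.40, SE 0.17) and ORR1A2 at 74.3 to 96.4 and 99.7 to 123 CPM (−0.41, SE 0.17).

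The split also depended on single libraries. Without WT replicate 3, 9 members were higher and 7 lower, which turns its balance. Higher and lower calls were 1 and 4 without KO replicate 1 and likewise without KO replicate 4, 0 and 6 without WT replicate 1, and 1 and 6 without WT replicate 4. When 1 library at a time was left out, MTC-int, MTEa-int, ORR1E and ORR1G-int kept their calls in each case. MTA_Mm lost its call without KO replicate 1, 3 or 4 or WT replicate 1, 2 or 4 (adjusted p up to 0.0203) and MTA_Mm-int without WT replicate 1 or 4 (up to 0.0147). MTB-int and ORR1A0-int lost theirs without any library but WT replicate 3 (up to 0.0237 and 0.0241), and MTB_Mm-int without KO replicate 1 or 4 or WT replicate 1 (up to 0.0131). ORR1A4 and ORR1A4-int lost theirs without KO replicate 1 or 4 (up to 0.0115 and 0.012), and ORR1F without KO replicate 1, 2 or 4 or WT replicate 1, 2 or 4 (up to 0.0192). No sign changed. With replicates 1 and 4 of each genotype summed to 1 library, 2 of the 12 subfamilies were called, MTEa-int and ORR1G-int, while the log2 fold changes of the other 10 kept their sign (0.67 for MTA_Mm and −1.06 for ORR1E).

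**Figure D2:**
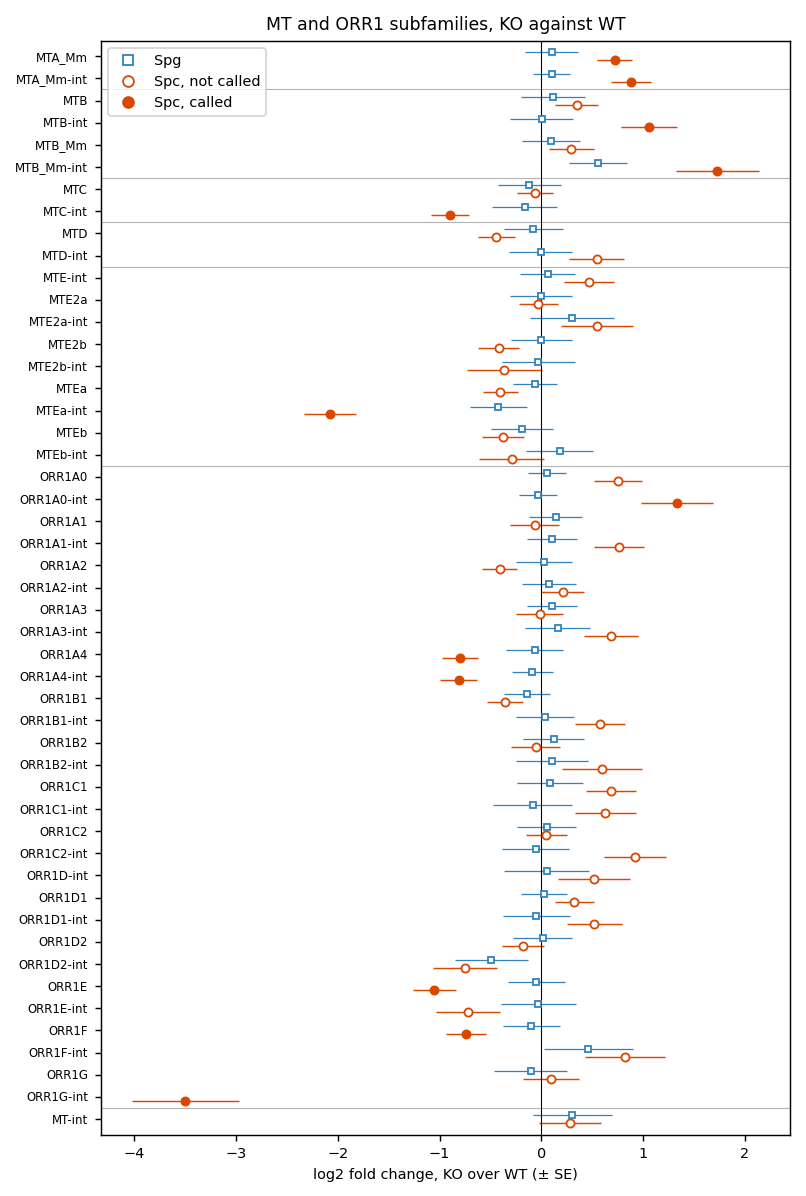
Log2 fold change of KO over WT with its SE for each of the 49 subfamilies (48 in spermatogonia), with spermatogonia as blue squares and spermatocytes as orange circles, filled where called. The spermatogonia stay between −0.49 and 0.56, while in spermatocytes 5 filled circles lie to the right (MTA_Mm, MTA_Mm-int, MTB-int, MTB_Mm-int, ORR1A0-int) and 7 to the left.

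Several subfamily values in spermatocytes rested on 1 copy. MTEa-int_dup232 held 86.2% of the MTEa-int CPM in WT and 46.0% in KO, and without it the log2 ratio of the summed copies went from −2.10 to −0.14. The copy lies at chr3:40978146-40979469 (+) in an intron of Larp1b, a gene for an RNA-binding La-related protein, on its strand. It was at 8.88, 4.47, 6.41 and 8.58 CPM in KO and 63.7, 58.1, 42.9 and 63.3 CPM in WT (log2 fold change −3.03, SE 0.38, limma adjusted p = 9.39e-06), and Larp1b itself fell by 2.94 (edgeR adjusted p = 3.28e-05). Likewise ORR1G-int_dup3, at chr1:39628263-39629399 (−) in an intron of Creg2, held 94.5% of the WT signal of its subfamily, whose log2 ratio went from −3.52 to 0.51 without it. The fall of MTC-int went from −0.92 to −0.35 without MTC-int_dup2183 (36.9% of the WT signal), the exonic copy shown above. That copy was at 1.81, 2.92, 1.94 and 1.83 CPM in KO and 31.4, 20.1, 14.1 and 31.5 CPM in WT (−3.43, SE 0.41, limma adjusted p = 5.55e-06). Without ORR1A4-int_dup481, in an exon of Gm26799 at chr6:112703924-112704246 (+), the value of ORR1A4-int went from −0.83 to −0.43.

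The falls of the ORR1 LTRs were spread over more copies. ORR1E went from −1.08 to −0.88 without its leading copy, ORR1F from −0.76 to −0.63 and ORR1A4 from −0.82 to −0.63. Still, 18 copies of ORR1E made up 50% of its signal in WT and 155 copies in KO, with 29 and 194 copies for ORR1F and 9 and 72 for ORR1A4. Among the subfamilies that rose, MTA_Mm (0.73 with and 0.54 without MTA_Mm_dup7042) and MTA_Mm-int (0.89 and 0.98) did not rest on 1 copy, with 53 copies for 50% of the MTA_Mm signal in WT and 91 in KO. MTB_Mm-int went from 1.76 to 0.95 without MTB_Mm-int_dup237, which held 43.0% of its signal in KO.

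Reads fell on 43124 of the member copies (11.6%) in spermatogonia and on 55774 (15.1%) in spermatocytes, against 15.1% and 18.3% of all TE copies. Copies were tested with limma on log2(CPM + 0.05) where the mean was at least 0.1 CPM, which understates the change of low copies. Reads from near-identical copies, such as those of MTA, may have been divided between them by the counting. In spermatocytes 3272 member copies passed the filter, and 807 were higher and 871 lower in KO (24.7% and 26.6%). Of all TE copies tested 57.5% were called (42.4% higher, 15.1% lower), and of TE copies other than young L1 and ERVK 46.6% (27.0% higher, 19.5% lower). With library totals in place of TMM, tried after seeing the data, 1284 member copies were higher and 612 lower. With replicates 1 and 4 summed, 516 were higher and 725 lower, and without WT replicate 3 the balance turned, with 957 higher and 789 lower. Taking only copies of at least 0.5 CPM left 137 higher and 265 lower.

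The groups differed in their balance of calls. MTA had 117 copies higher and 47 lower of 359 (32.6% and 13.1%), and MTB 43 and 27 of 144 (29.9% and 18.8%). MTC had 69 higher and 80 lower of 292, MTD 84 and 134 of 433, and MTE 100 and 164 of 492 (20.3% and 33.3%). ORR1 had 392 higher and 417 lower of 1541, with ORR1A at 165 and 134 of 567, ORR1E at 24 and 64 of 155 and ORR1F at 28 and 64 of 132. Internal parts had 253 higher and 133 lower of 742 (34.1% and 17.9%), and LTRs 554 and 738 of 2530 (21.9% and 29.2%). The other ERVL-MaLR copies had 127 higher and 192 lower of 518. These shares are counts with no test between groups.

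The largest rise in spermatocytes was that of MTA_Mm_dup7042, at chr8:40144926-40145251 (+) outside annotated genes. It was at 22.9, 7.53, 18.9 and 25.3 CPM in KO and at 0.112, 0, 0.414 and 0 CPM in WT (log2 fold change 7.18, SE 0.68, limma adjusted p = 5.5e-07), where WT replicate 3 held 20 of the 24 WT reads and the log2 fold change was 7.84 without it. The copy begins 431 bp downstream of a copy of the ERVK element MMERVK10C-int that rose as well. ORR1A2-int_dup471, at chr5:47971685-47973540 (+), was at 3.39, 2.89, 4.36 and 3.78 CPM in KO and had no read in WT, which is at least 45.3-fold higher at a floor of 3 reads per library. It lies 1465 bp from the start of Gm43427, which rose by 7.77 on the log2 scale. MTB_Mm-int_dup237 (chr12:62967021-62967751, +) was at 4.55, 1.20, 2.83 and 4.22 CPM in KO without a read in WT (at least 40.2-fold), 1020 bp from a risen L1Md_T. MTA_Mm-int_dup1322 (chr7:51476100-51477122, +) was at 1.03 to 2.86 CPM in KO without a read in WT (at least 29.5-fold), 999 bp from a risen L1Md_A. MTD-int_dup2358 (chr17:43466586-43467480, +) was at 3.73 to 12.5 CPM in KO and 0.0318 to 0.952 CPM in WT (log2 fold change 5.60, and 6.42 without WT replicate 3, the highest WT library), 1460 bp from another MMERVK10C-int copy. Thus 4 of the 5 copies with the largest rise had a risen L1 or ERVK copy just upstream on their strand.

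The largest fall was that of ORR1B1_dup1752, at chr2:127703381-127703710 (+) outside annotated genes. It was at 0.0355, 0, 0.0682 and 0 CPM in KO and at 41.5, 56.5, 51.5 and 41.0 CPM in WT (log2 fold change −9.38, SE 0.42, limma adjusted p = 1.61e-08). MTD_dup35454 (chr11:50940305-50940451, −) was at 0 to 0.0888 CPM in KO and 11.9 to 31.9 CPM in WT, 3314 bp from the start of 4933414I15Rik, which fell by 9.57 on the log2 scale. MTD_dup38861 (chr12:98454577-98454774, +), in an intron of the potassium channel gene Kcnk10 on the other strand, was at 0, 0, 0.0170 and 0 CPM in KO and 11.3, 16.5, 12.3 and 11.5 CPM in WT, at least 249-fold lower. ORR1A2-int_dup1771 was at 0 to 0.0711 CPM in KO and 10.3 to 19.4 CPM in WT. ORR1A2_dup8911 (chr10:66684132-66684510, −) was at 0 to 0.0550 CPM in KO and 8.12 to 18.4 CPM in WT, at least 255-fold lower. All 5 thus had at most 5 reads in a KO library beside levels of at least 8.12 CPM in each WT library. MTB_Mm_dup4303, the MTB copy of highest level, showed the same picture with 0 to 0.0511 CPM in KO and 1.66 to 4.40 CPM in WT. The pachytene markers, given above, were low in the same KO libraries.

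**Figure D3:**
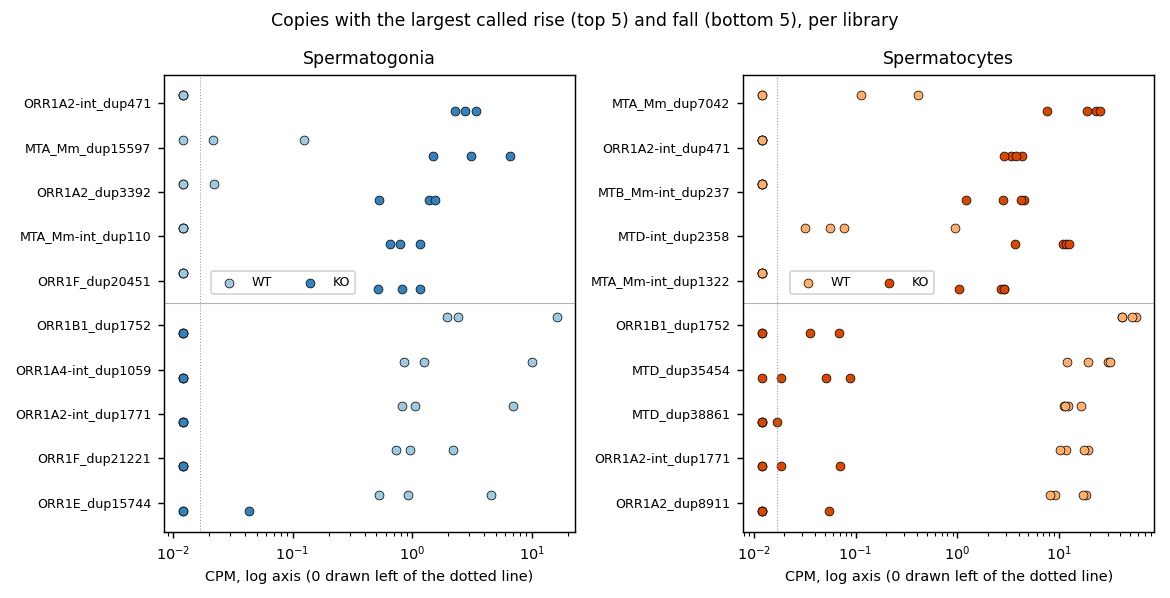
CPM of each library on a log axis for the called copies that rose most (upper 5) and fell most (lower 5) in spermatogonia (left) and spermatocytes (right), with values of 0 drawn left of the dotted line. KO and WT points are apart in every row because only copies without overlap between groups were chosen. ORR1B1_dup1752, for example, was at 41.0 to 56.5 CPM in WT and at most 0.0682 CPM in KO spermatocytes.

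In spermatogonia 30 member copies were higher and 17 lower in KO out of 3553 tested. Of all TE copies 7.31% were called (7.06% higher and 0.25% lower), and of those other than young L1 and ERVK 1.18%, which is near the members' 1.32%. With a replicate block, since the numbers pair these libraries, 83 were called (45 higher and 38 lower). The calls were sensitive to single libraries, with 7 left without KO replicate 1, 11 without KO replicate 2, 9 without KO replicate 3 and 30 without WT replicate 2, and with the deposited TPM values in place of rescaled reads 0 were called, by the same limma test. The copies with the largest rise were ORR1A2-int_dup471, with 3.41, 2.27 and 2.77 CPM in KO and no read in WT (log2 fold change 5.82, SE 0.57, limma adjusted p = 6.54e-06, at least 41.1-fold), and MTA_Mm_dup15597 on an unplaced scaffold, with 1.49, 6.60 and 3.14 CPM in KO and 0.0214, 0.125 and 0 CPM in WT (5.22, SE 0.67). The latter lost its call without KO replicate 3 (adjusted p = 0.0142). ORR1A2_dup3392 (chr4:152787588-152787914, −), MTA_Mm-int_dup110 (chr1:52406886-52407556, +) and ORR1F_dup20451 (chr16:31542080-31542432, −) were at 0.515 to 1.56 CPM in KO, with 1 read in all WT libraries together. Of these 3, ORR1A2_dup3392 lost its call without KO replicate 2 or 3 (adjusted p up to 0.0124), and ORR1F_dup20451 without KO replicate 1 (0.0108).

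The falls in spermatogonia were uneven over the WT libraries. ORR1B1_dup1752, the copy with the largest fall in spermatocytes, had no read in KO spermatogonia and was at 2.44, 16.2 and 1.95 CPM in WT (log2 fold change −6.43, SE 0.73, limma adjusted p = 1.81e-05, and −5.48 without WT replicate 2). Without KO replicate 3 it missed the threshold by little. ORR1A4-int_dup1059 (chr14:24418822-24420437, −) had no read in KO and 0.856, 10.1 and 1.26 CPM in WT, and ORR1A2-int_dup1771 (chr15:59292810-59293472, +) none in KO and 1.05, 7.04 and 0.820 CPM in WT. ORR1E_dup15744 (chr11:107997089-107997319, +), in an intron of Prkca on the other strand, was at 0, 0 and 0.0433 CPM in KO and 0.920, 4.56 and 0.532 CPM in WT. These 3 lost their calls without any 1 of the KO libraries (adjusted p up to 0.0231, 0.0201 and 0.0235). ORR1F_dup21221 (chr17:27295733-27295900, −), without a read in KO and at 0.728, 2.18 and 0.953 CPM in WT, kept its call. WT replicate 2 was highest for each of the 5, and without it the log2 fold changes went from −5.52 to −4.45 for ORR1A4-int_dup1059, from −5.24 to −4.29 for ORR1A2-int_dup1771 and from −4.48 to −3.61 for ORR1E_dup15744. Those of ORR1A4-int_dup1059 without WT replicate 1 and of ORR1E_dup15744 without WT replicate 3 were −6.19 and −5.10. Over all 17 copies that fell, the summed reads were 7, 10 and 4 in KO and 535, 2437 and 482 in WT spermatogonia. The same copies had 44, 26, 59 and 62 reads in KO and 4203, 5926, 7609 and 3649 in WT spermatocytes. The summed level of the pachytene markers in spermatogonia was 155 to 183 CPM in KO and 504, 1671 and 280 CPM in WT, highest in replicate 2 and in the same order as these reads, and its part in these falls was not tested.

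Most copies called in spermatogonia were called again, in the same direction, in the separate libraries of the spermatocytes, as were most TE copies in general. Of the 30 that rose, 29 could be tested in spermatocytes and 26 rose there (86.7% of the 30, 3.22% of the 807). All 17 that fell also fell in spermatocytes (100% of the 17, 1.95% of the 871), and 0 moved the other way. Over all TE copies 97.7% of those that rose in spermatogonia rose again and 96.9% of those that fell also fell, with 92.4% and 97.0% for TE copies other than the members and young L1 and ERVK. The 30 copies that rose had 1224, 1603 and 1226 reads in KO and 47, 46 and 24 in WT spermatogonia, and 3255, 2030, 3449 and 3454 in KO and 17, 18, 70 and 5 in WT spermatocytes. The copies of highest level in spermatogonia were not among those called. MTA_Mm-int_dup509 (chr2:177014148-177015225) was at 4.47, 5.81 and 3.81 CPM in KO and 3.72, 5.34 and 7.73 CPM in WT, and MTEa_dup10997 (chr9:99170793-99171006) at 8.52, 8.79 and 16.4 CPM against 8.65, 6.97 and 9.31 CPM.

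Copies that rose often lay next to young L1 and ERVK copies that rose too (L1Md_T, L1Md_A, L1Md_Gf, IAP, MMERVK10C-int and RLTR10C). In spermatogonia 12 of the 30 risen member copies (40%) lay within 5000 bp of such a copy on the same strand, and in all 12 the young copy was upstream. This compares with 38 of 3506 member copies not called (1.08%) and 0 of 17 that fell. In spermatocytes the counts were 146 of 807 risen copies (18.1%, with the young copy upstream of 128), 26 of 1594 not called (1.63%) and 3 of 871 that fell (0.344%). TE copies other than the members and young L1 and ERVK gave much the same shares, with 35.7% of the risen and 0.611% of the uncalled copies in spermatogonia and 14.2% and 1.07% in spermatocytes. On the X chromosome lay 28 of the 807 risen member copies (3.47%), 13 of the 1594 not called (0.816%) and 0 of the 871 that fell, with 7.66% of all risen TE copies.

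**Figure D4:**
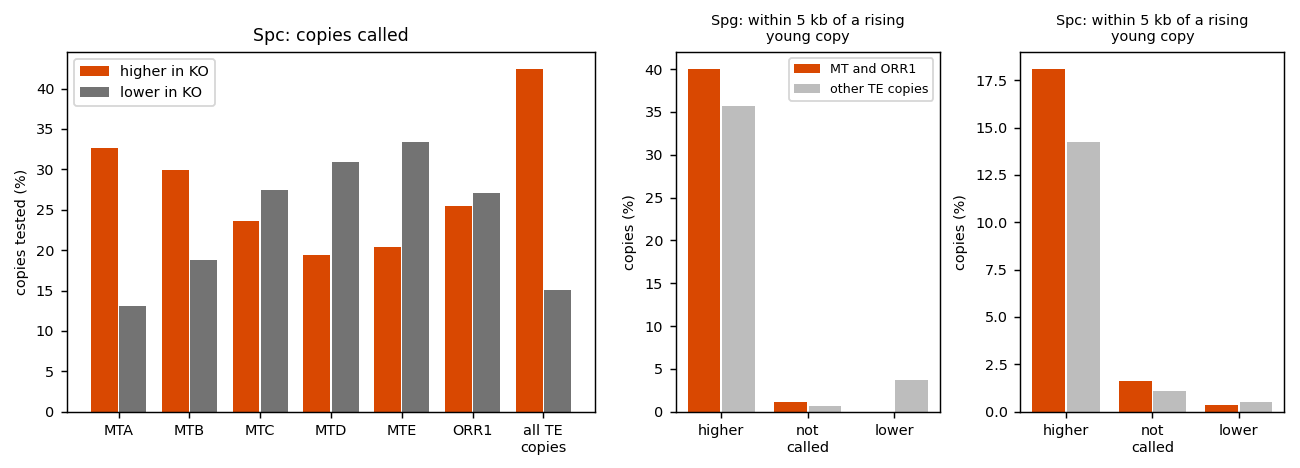
Left, percentage of tested copies called higher or lower in KO spermatocytes for each group and for all TE copies. Middle and right, percentage of copies within 5000 bp of a risen young L1 or ERVK copy by call in spermatogonia and spermatocytes, with member copies in orange and other TE copies in grey. The bars of risen member copies reach 40% and 18.1% beside 1.08% and 1.63% for copies not called.

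Called copies lay both inside and outside genes. In spermatocytes 267 of the 871 copies that fell were in a tested gene on the same strand (201 genes), and the gene was lower for 244 (91.4%), higher for 3 and not called for 20. Of 236 risen copies in such genes, the gene was higher for 83 (35.2%), lower for 42 (17.8%) and not called for 111. Over all TE copies the corresponding shares were 91.3% for falls and 43.0% for rises, so the members were near the background. Outside annotated genes lay 52.7% of the risen and 52.7% of the fallen member copies and 39.4% of those not called, against 61.2%, 47.5% and 29.5% over all TE copies.

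Of the genes in the annotation, 559 have the annotated start of a transcript, not necessarily the main one, in a member LTR on the same strand. Such genes were singled out after their values were seen, and gene counts do not tell which start was used. In spermatogonia 0 of the 93 tested were called by edgeR (0.0629% of all genes). In spermatocytes 23 were higher and 42 lower of 112 tested (20.5% and 37.5%), against 28.0% and 30.7% of all genes. The 29 lincRNAs among them (1 higher and 17 lower, 58.6%) matched the share of lower calls over all lincRNAs tested, 57.2%, and the 57 coding genes (18 higher and 17 lower) were near the shares of all coding genes. By group, 5 of 7 genes starting in MTA LTRs were higher and 0 lower, with 1 and 1 of 4 for MTB, 1 and 1 of 5 for MTC, 4 and 7 of 12 for MTD, 4 and 11 of 23 for MTE and 8 and 22 of 61 for ORR1. Of 48 tested genes starting in a member LTR of the opposite strand, 7 were higher and 21 lower (14.6% and 43.8%).

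The genes with a start in MTA LTRs that rose included Stk3, a kinase of the Hippo pathway, at 65.4, 31.3, 44.8 and 64.6 CPM in KO and 3.24, 3.54, 10.4 and 3.95 CPM in WT (log2 fold change 3.28, SE 0.46, edgeR adjusted p = 0.000175). Iffo2 was at 14.8, 12.4, 18.6 and 14.1 CPM in KO and 0.549, 1.91, 4.95 and 0.778 CPM in WT (2.86, SE 0.65, adjusted p = 0.0029, with a log2 fold change of 3.78 without WT replicate 3). It lost its call without WT replicate 2 (adjusted p = 0.0103) and, like Hdac9 below, with replicates 1 and 4 summed (log2 fold change 2.60). The lectin receptor gene Clec12a (2.93), the cytochrome gene Cyp2c29 (2.80) and Gm42847 (3.05) rose at lower levels. In all of these genes the groups did not overlap, which was so for 68.4% of all genes tested. Macrophage markers were higher in KO as well (19.5 to 108 CPM against 2.52 to 5.01 CPM in WT). Their part in these rises was not tested. Hdac9, with its start in an MTEa LTR, was at 20.9, 4.76, 4.70 and 17.8 CPM in KO and 1.24, 0.653, 2.65 and 1.37 CPM in WT (3.02, SE 0.65, adjusted p = 0.00216), with KO replicates 1 and 4 high, and Tet1, for an enzyme that oxidises methylated cytosine, rose by 4.65 with the same 2 KO libraries high (11.7 and 11.8 CPM against 1.87 and 1.24 CPM). An annotated transcript start of Tet1 lies in an ORR1A0 LTR. The same 2 libraries were high in Leydig cell markers (276 and 231 CPM, against 46.5 and 52.3 CPM in KO replicates 2 and 3) and in Sertoli cell markers (351 and 324 CPM, against 134 and 94.1 CPM), whose part in these values was not tested.

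The 3 non-coding genes shown above had almost no counts in KO. 4932702P03Rik, with its start in an ORR1F LTR, was at 0.263, 0, 0.369 and 0.399 CPM in KO and 162, 68.8, 43.0 and 168 CPM in WT (log2 fold change −8.74, SE 0.92, edgeR adjusted p = 3.51e-05). It is annotated as antisense. 4930478P22Rik, at an MTE2b LTR, was at 0 to 0.217 CPM in KO and 42.6, 8.56, 10.5 and 44.6 CPM in WT (−8.61, SE 1.13, adjusted p = 0.000125, and −10.42 without KO replicate 4). 1700019C18Rik, at the other MTE2b LTR, was at 0.105 to 0.344 CPM in KO and 26.5, 16.6, 11.2 and 28.1 CPM in WT (−6.67, SE 0.57, adjusted p = 1.11e-05). Piwil1, for a Piwi protein that binds piRNA in pachytene cells, has an annotated transcript start in an MTD LTR and is itself one of the pachytene markers. It was at 11.8, 8.29, 16.2 and 14 CPM in KO and 2431, 3075, 1693 and 2381 CPM in WT spermatocytes (−7.57, SE 0.35). Vdac2, for a mitochondrial outer membrane channel, has an annotated transcript start in an MTC LTR and fell by 2.62. Like Stk3, Clec12a, Cyp2c29, Gm42847, Tet1 and Piwil1, it was not among the called genes with a RefSeq promoter window in a member LTR.

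**Figure D5:**
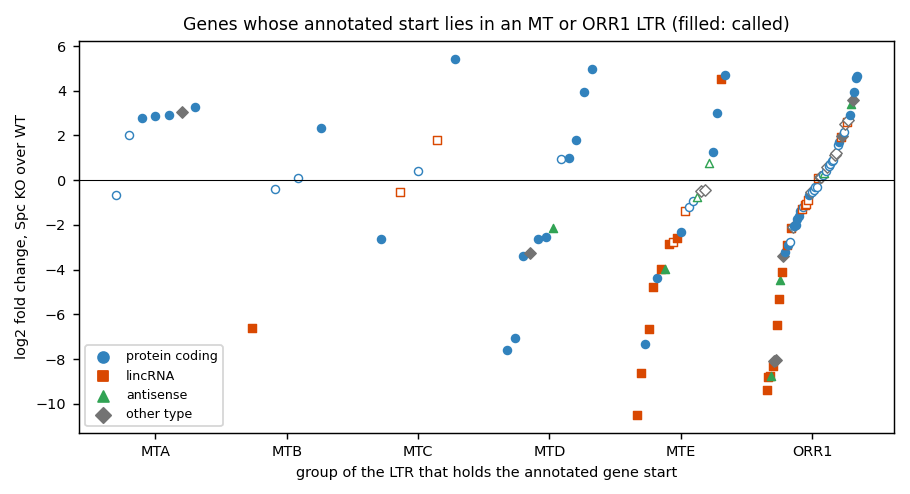
Log2 fold change of KO over WT in spermatocytes for each tested gene with an annotated transcript start in a member LTR on the same strand, by group of the LTR, with the kind of gene given by colour and shape and calls filled. In the MTA column 5 of 7 genes are filled and lie between 2.80 and 3.28, while filled lincRNAs make up much of the lower end of the MTE and ORR1 columns.

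The KO effect differed between the stages for 2 of the 49 subfamilies, both lower in spermatocytes (edgeR interaction test over all 14 libraries), where 24.9% of all features passed. The difference was −1.70 for MTEa-int (adjusted p = 0.00337) and −3.43 for ORR1G-int (adjusted p = 0.00237), both of which rested largely on 1 copy in WT. MTEa-int lost its call without KO replicate 1 or 2 or WT replicate 1 or 3 of the spermatogonia (adjusted p up to 0.0163), and ORR1G-int without KO replicate 1 of the spermatogonia (0.0112). With library totals MTEa-int lost its call too (edgeR adjusted p = 0.0463). Over all alternatives its difference ran from −1.89 to −0.97. For the other 10 subfamilies called in spermatocytes, the difference between stages was not called. Between WT spermatogonia and WT spermatocytes, which differ in sort and in age of the mice, 11 members were higher in spermatocytes and 0 lower, where 51.4% of all features were called. The log2 differences were 4.63 for ORR1G-int, 2.40 for MTEa-int, 1.58 for ORR1E, 1.21 for ORR1F, 1.21 for ORR1A4, 1.20 for ORR1E-int, 1.18 for MTE2b, 1.18 for MTC-int, 0.99 for MTEa, 0.93 for ORR1A4-int and 0.79 for ORR1B1. The 7 subfamilies that fell in KO spermatocytes are in this list, but both comparisons use the WT spermatocyte libraries. With library totals, 2 were higher and 4 lower, and the median of all genes moved from 0.02 to −0.76. Without WT replicate 1 or 3 of the spermatogonia, 5 and 7 were called. ORR1E-int lost its call in 16 of 20 alternatives, with log2 differences of 0.39 to 1.29. Between KO spermatogonia and KO spermatocytes 0 were called by edgeR (2.99% of all features), with 18 members at an unadjusted p under 0.05 and 4 called by DESeq2.

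Genes that silence LTR elements by histone methylation, DNA methylation or chromatin remodelling were looked at as a list of 20. In spermatogonia 0 of the 20 were called by edgeR and 0 had an unadjusted p under 0.05. In spermatocytes 7 were higher and 4 lower, against 28.0% and 30.7% of all genes. Suv39h1, a histone methyltransferase gene, was at 114, 114, 130 and 127 CPM in KO and 2.47, 11, 24 and 3.11 CPM in WT (log2 fold change 3.58, SE 0.66, adjusted p = 0.000921). Also higher were the histone methyltransferase genes Ehmt1 (2.94) and Suv39h2 (2.11), the DNA methyltransferase genes Dnmt3a (2.84) and Dnmt3b (1.97), the remodeller gene Hells (2.65) and the HP1 gene Cbx3 (1.28). Trim28, for the corepressor that KRAB zinc finger proteins bring to LTR elements, was at 344, 369, 399 and 361 CPM in KO and 1180, 1083, 721 and 1149 CPM in WT (−1.49, SE 0.21). Dnmt3l (−2.45), a cofactor of de novo methylation, Uhrf1 (−0.78), which brings DNMT1 to hemimethylated DNA, and the demethylase gene Kdm1a (−0.70) were lower too. The part of these genes in the values of the MT and ORR1 elements was not tested.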

How the data were processed

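Deposited count tables, made by the authors with STAR 2.7.3a (GRCm38, GENCODE release M25, up to 100 alignments per read) and TEtranscripts 2.2.3, hold counts per gene and TE subfamily. The deposited TPM tables, made by the authors with TElocal 1.1.1, hold TPM per TE copy, which sum to 1000000 over TE copies alone. The authors left out 1 spermatogonial library per genotype for a RIN under 8. Their fold change and p-value columns (DESeq2 1.44.0) were not used.

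Counts were tested with edgeR 4.0.16 (quasi-likelihood, TMM scaling, filterByExpr), two-sided, with Benjamini-Hochberg adjustment over all features and calls at adjusted p under 0.01. TPM were turned into reads with the copy lengths (100% whole within 0.01 of a read, recovering 97.3 to 98.8% of the TE counts), expressed as CPM and tested with limma 3.58.1 on log2(CPM + 0.05) where the mean was at least 0.1 CPM. Copies were placed with GENCODE release M21 and bedtools 2.31.1. DESeq2 1.42.0, other scalings, filters and pseudocounts, and omission of each library were alternatives. Scripts were tested on simulated data.

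The subfamilies named were the most counted in each group and the called ones with the largest changes at a mean count of at least 100, with ORR1G-int named after its values were seen. The copies named were the called ones with the largest rise and fall in each stage, 5 each way. They needed a mean of at least 0.5 CPM in the higher group and groups without overlap. The copies of highest level in each group were named as well. Members and lists were chosen with earlier results of these data known. Spermatogonia of the same replicate number deviated together (correlations 0.68, 0.18 and 0.25 across features), so the numbers were taken to pair them, although KO replicate 2 correlated more with WT replicate 3 (0.318). Spermatocyte replicates 1 and 4 were more alike than other pairs (chi-square per degree of freedom 10.6 in KO and 13.5 in WT, against 115 to 255) but differed beyond sampling noise and were counted separately. The study describes 3 biological replicates at this stage where the labels give 4 libraries, so these 2 may be technical replicates, and a fit with both summed was an alternative.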

Additional observations from a re-analysis of the deposited data

Results flagged for a closer look

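Among the 76 groups of 4 spermatocyte libraries examined, 10 had 1 library far from the others (by the gap to the nearest library over the range of the 4). For 4 independent values chance gives about 1 in 20, but replicates 1 and 4 may not be independent, so this rate may not apply here. A copy with reads in 1 library of a group meets the criterion by construction, as MTD_dup38861 and ORR1A2_dup8911 did. WT replicate 3 was that library in 5 of them. It had 0.00712% of the counts in MTB (others 0.00385 to 0.00409%), 0.0296% in MTD (0.0203 to 0.0217%) and 0.0379% in MTE (0.0263 to 0.0282%), 26.0 CPM for ORR1A0-int (9.37 to 11 CPM) and 0.952 CPM for the copy MTD-int_dup2358 (0.0318 to 0.0769 CPM). KO replicate 3 had 0.0124% of the counts in MTB (0.0103 to 0.0106%) and 0.0170 CPM for MTD_dup38861, which had no read in the other KO libraries. KO replicate 2 had 1.03 CPM for MTA_Mm-int_dup1322 (2.66 to 2.86 CPM) and 2.92 CPM for MTC-int_dup2183 (1.81 to 1.94 CPM). KO replicate 4 had 0.0550 CPM for ORR1A2_dup8911, without a read in the other KO libraries.

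The KO effect differed between the stages, by the interaction test of edgeR, for MTEa-int (−1.70, adjusted p = 0.00337) and ORR1G-int (−3.43, adjusted p = 0.00237). MTEa-int lost its call in 5 of 20 alternatives, library totals among them, and ORR1G-int in 1 of 20.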

How the results depend on the processing

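Of the overall counts and shares recomputed under the alternatives, 105 values stayed within 1.5 times or 1 SD of the reported one and 28 did not. No named subfamily, copy or gene that was tested changed sign, but 5 of the 7 subfamily falls in spermatocytes lost their call with library totals. The genes tested in this way were called ones with a RefSeq promoter window in a member LTR and a mean of at least 4 CPM. Other genes named, such as Stk3, Tet1, Piwil1 and Trim28, were not put through the alternatives. Per TE count the log2 ratios of all 6 group shares in spermatocytes turned from positive (0.25 to 1.44) to negative (−1.58 to −0.31), and so did MTA, MTB and ORR1 in spermatogonia. The 12 subfamilies called in spermatocytes became 20 with library totals and 2 with replicates 1 and 4 summed (an alternative listed with earlier results known, which leaves 3 libraries a group), and 5 to 16 when 1 library was left out. With the replicate block 9 were called there. The spermatocyte replicate numbers share little (correlations 0.056, 0.188, −0.032 and 0.105). The 2 differences between stages became 1 with library totals, that of ORR1G-int, and 0 to 3 without 1 library. The 11 stage differences in WT became 17 with DESeq2, 6 with library totals and 5 to 12 without 1 library, and the 0 in KO became 4 with DESeq2. The 47 copies called in spermatogonia became 0 on the deposited TPM, 73 and 20 with minimum means of 0.02 and 0.5 CPM, 30 with a pseudocount of 0.5 CPM, 83 with the replicate block and 7 to 60 without 1 library. The 1678 copies called in spermatocytes became 402 at a minimum mean of 0.5 CPM, where 553 copies were tested, and 1336 to 1746 without 1 library. With edgeR on the recovered reads, tried after seeing the data, 62 and 1435 copies were called in the 2 stages, 47 and 1377 of them the same copies. The log2 ratio of the members' share became −0.50 in spermatogonia and −1.24 in spermatocytes per TE count, and lay between −0.27 and 0.15, and between 0.48 and 0.74, without 1 library. Apart from these, the cause was not tested. The replicate block changed no other count by over 1.5 times. Copies below 0.1 CPM were not tested, which limits what can be said of most of the annotated copies.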
